A study of Homo sapiens with 28 samples.

Results

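A set of 10 genes of the Polycomb repressive complexes were followed in SK-N-MC cells, a Ewing sarcoma line written SKNMC in the labels: EZH2, EZH1, SUZ12, EED, JARID2, MTF2, PHF19, BMI1, CBX2 and CBX7. They were taken by symbol from the deposited expression table, which held 1 row for each, so the set is 10 of the 35488 genes there. All 10 had a mean of at least 10 normalised reads and were among the 21025 genes tested.

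Polycomb proteins keep genes silent through 2 linked complexes. PRC2 methylates histone H3 at lysine 27 through EZH2 or EZH1, which work only when bound to SUZ12 and EED, and accessory proteins such as JARID2, MTF2 and PHF19 bring it to its targets. PRC1 ubiquitinates histone H2A, with BMI1 supporting the ubiquitin ligase and the CBX proteins reading the methyl mark. HOX and other developmental regulator genes are classical targets, and Ewing sarcoma is known for high EZH2, a gene reported as a target of the EWS-FLI1 fusion protein.

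All cells carried an inducible short hairpin RNA, and all received doxycycline at 100 ng/ml, controls included. The control hairpin (shScramble) had 5 libraries at 24 h and 5 at 48 h. A hairpin against FLI1 (shFLI1), used to silence the fusion, and 2 hairpins against CHD4, a chromatin remodelling ATPase (shCHD4#1 and shCHD4#2), had 3 libraries each at each time. The labels call these biological replicates of 1 cell line and do not say whether the hairpin lines were clones or pools. In 1 label field, the genotype, the 48 h shScramble libraries are named as CHD4 knockdown, which their titles and treatment contradict. CHD4 in them (11605 ± 1563 normalised reads, SD, n = 5) was near its level in shScramble at 24 h (11550 ± 1236, n = 5). All comparisons of a hairpin with shScramble at 1 time share the same 5 control libraries.

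The libraries held 46102707 to 64775441 reads assigned to genes. FLI1 was 2.23-fold lower with shFLI1 at 24 h and 2.26-fold lower at 48 h, and CHD4 was 3.62- to 4.19-fold lower with its 2 hairpins. FLI1 reads come from the fusion and from any intact FLI1 alike. CHD4 was 1.26-fold higher with shFLI1 at 24 h (limma adjusted p = 0.0176), and FLI1 was 1.27-fold lower with shCHD4#2 at 48 h (limma adjusted p = 0.0291). The summed level of 6 Ewing sarcoma markers (CD99, NKX2-2, STEAP1, NR0B1, FLI1 and PAPPA) was 26833 to 32521 normalised reads in the shScramble libraries. By their share of reads on processed pseudogenes, the libraries fell into 16 with a lower share (0.223 to 0.283%) and 12 with a higher one (0.313 to 0.388%). The higher share was that of replicates 1 and 2 with shScramble, shCHD4#1 and shCHD4#2, while all shFLI1 libraries had the lower, so calls that change within lower-share libraries are given beside the result. Each CHD4 hairpin has 1 lower-share library per time. Fewer cells of a type and less RNA per cell cannot be told apart in these bulk samples.

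The sequence just upstream of 4 members is shown, EZH2 and SUZ12, lower with shFLI1 at 48 h, and PHF19 and EZH1, higher with it. They were picked from a larger number of members called, partly because the search below found an E2F-type motif in 3 of them. EED, MTF2 and BMI1 were also called lower and CBX7 higher, and the search found no such motif in their windows. The choice therefore ties no motif to the changes in level. Sequences are from RefSeq, build GRCh38.p14, and a promoter entry was matched for 9 of the 10 members (all but CBX2). Each is written 5′ to 3′ on the strand of its gene, and capitals mark the E2F-type motif. The EZH2 stretch is chr7:148884322-148884541 on the minus strand and the EZH1 stretch is chr17:42745050-42745290 on the minus strand, each ending at the base before the annotated gene. The SUZ12 stretch is chr17:31936757-31937006 on the plus strand, ending just before the annotated gene start. The PHF19 stretch is chr9:120877329-120877438 on the minus strand, within the annotated gene, because the RefSeq start used lies 17708 bases downstream of the first annotated one. It is the far 110 bases of the 250-base window, and the bases nearer that start are not shown.
EZH2: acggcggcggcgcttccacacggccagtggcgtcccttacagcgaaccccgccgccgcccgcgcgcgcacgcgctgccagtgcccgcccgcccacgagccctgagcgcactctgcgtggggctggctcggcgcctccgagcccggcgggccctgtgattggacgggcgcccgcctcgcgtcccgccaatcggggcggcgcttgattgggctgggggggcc
EZH1: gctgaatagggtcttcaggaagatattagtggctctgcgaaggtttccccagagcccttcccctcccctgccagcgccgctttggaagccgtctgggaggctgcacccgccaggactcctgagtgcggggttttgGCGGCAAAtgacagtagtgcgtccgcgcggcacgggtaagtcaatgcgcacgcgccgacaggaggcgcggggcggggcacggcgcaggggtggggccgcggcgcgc
SUZ12: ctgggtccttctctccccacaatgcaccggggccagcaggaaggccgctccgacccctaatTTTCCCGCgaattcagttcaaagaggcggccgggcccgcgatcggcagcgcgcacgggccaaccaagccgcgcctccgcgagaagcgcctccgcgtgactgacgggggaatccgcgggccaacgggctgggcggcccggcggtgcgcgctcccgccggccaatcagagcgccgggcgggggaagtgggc
PHF19: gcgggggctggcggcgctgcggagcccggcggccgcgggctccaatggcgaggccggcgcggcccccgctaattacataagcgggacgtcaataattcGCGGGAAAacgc

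Motifs were searched on both strands in the 250 bases before each RefSeq start, chosen after the expression values had been seen. The E2F-type motif was any of TTTCCCGC, TTTCGCGC, TTTGCCGC and TTTGGCGC. It occurred in 3 of the 9 members, and in 2.79% of 35116 promoters that were not matched to them in G and C content. SUZ12 had TTTCCCGC on its own strand, 182 to 189 bases before the start. EZH1 had TTTGCCGC on the opposite strand at 108 to 115 bases, and PHF19 had TTTCCCGC on the opposite strand at 145 to 152 bases. The EZH2 window held none of these letters. The ETS-type motif CCGGAAGT (3.42% of promoters) and the repeat GGAAGGAA (3.06%), the type of element that EWS-FLI1 is known to bind, occurred in none of the 9. G and C made up 75.6% of the EZH2 window, 67.6% of EZH1, 72.8% of SUZ12 and 79.2% of PHF19. The other member windows held 64.4 to 78.8%, except EED at 51.2%, against a median of 58% over all promoters. All member windows but that of EED were thus richer in G and C than the median promoter. The share of members with a motif is therefore not a like comparison with the share of all promoters. Whether it differs from that of promoters of like content was not tested. A match is a description of letters in this window and shows no binding.

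Levels between genes were compared per kilobase of annotated exon. In shScramble cells at 24 h EZH2 stood first at 3058 ± 430.0 normalised reads per kb (SD, n = 5), followed by JARID2 at 2389 ± 611.4, whose range overlapped it. CBX2 followed at 1272 ± 81.9 per kb, apart from both neighbours. MTF2 (745.1 per kb), BMI1 (609.6) and SUZ12 (555.1) formed the middle of the order, and each overlapped the next. EED (271.0 per kb) and EZH1 (268.0) overlapped, as did PHF19 (36.8) and CBX7 (29.1) at the bottom. The catalytic pair was thus far from even, with 11.6 ± 2.18 EZH2 reads per EZH1 read per kb. The order at 48 h differed only where neighbours overlapped at both times, with SUZ12 at 541.8 and BMI1 at 532.0 per kb, and EZH1 at 292.9 and EED at 285.4. In shScramble none of the 10 differed between 48 and 24 h (limma, 0 of 21025 genes called in all, percent called 0). At an unadjusted p under 0.05 that comparison had 485 genes, edgeR called 0 and DESeq2 called 1 gene higher and 1 lower.

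**Figure D1:**
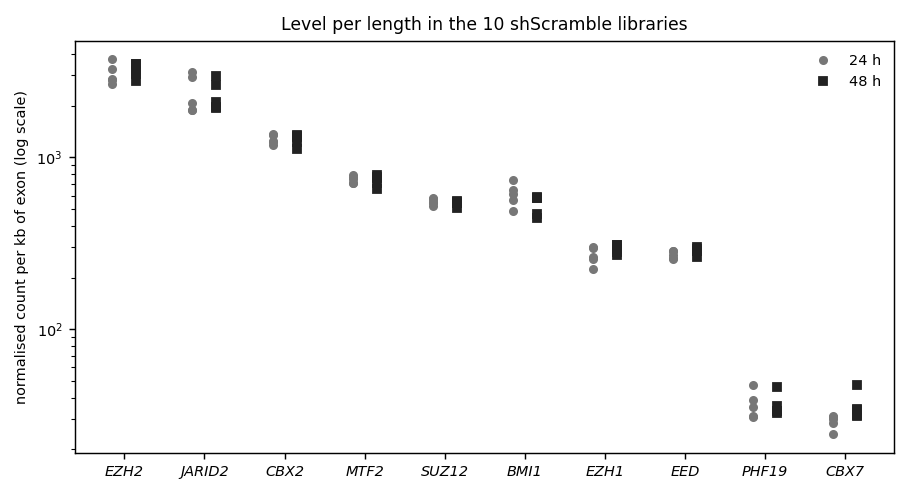
Level of each Polycomb gene in the 10 shScramble libraries, as normalised reads per kb of exon on a log axis, 1 point per library and 1 marker shape per time. EZH2 and JARID2 stand highest, and PHF19 and CBX7 lowest, near 36.8 and 29.1 per kb at 24 h.

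With FLI1 silenced for 48 h, the core of PRC2 fell and its accessory subunit PHF19 rose. EZH2 was 1.96-fold lower, SUZ12 1.37-fold and EED 1.3-fold, while PHF19 was 3.49-fold higher. In all, 8 of the 10 genes passed the test, 3 higher and 5 lower, against 63.9% of all genes tested (32.2% higher, 31.7% lower), so the count is to be read against a background in which most genes were called. At 24 h 3 of the 10 were called, 1 higher and 2 lower, against 46.7% of all genes (24.2% higher, 22.5% lower).

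EZH2, the main histone methyltransferase, had 15803, 14474, 13743, 12502 and 15754 normalised reads in the 5 shScramble libraries at 48 h. The 3 shFLI1 libraries had 7088, 7103 and 7848. Every shFLI1 library was thus below every control, a log2 difference of −0.97 (SE 0.10, limma adjusted p = 1.18e-06). At 24 h the shFLI1 libraries had 9787, 9752 and 10788 normalised EZH2 reads, against 14772, 16785, 12722, 12009 and 12851 in shScramble. These groups did not overlap either, and the difference was smaller, −0.44 (SE 0.11, limma adjusted p = 0.00377). The 24 h call was lost after quantile normalisation (−0.28, adjusted p = 0.0924). The shFLI1 effect on EZH2 was 0.53 log2 units more negative at 48 than at 24 h, and that difference itself passed (SE 0.15, limma adjusted p = 0.0138). After quantile normalisation it did not (−0.49, adjusted p = 0.0595). EZH2 was one of 3 members whose shFLI1 effect differed between times, all 3 lower at 48 h, against 16.7% of all genes (7.22% higher, 9.44% lower). Within lower-share libraries JARID2 (0.32), MTF2 (−0.33), PHF19 (0.69), CBX2 (−0.30) and CBX7 (0.41) differed too (adjusted p = 0.0225 to 0.0441).

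EZH1, the second methyltransferase, associated with cells that divide little, had 2584, 2497 and 2462 normalised reads with shFLI1 at 48 h and 1881, 2169, 1969, 2162 and 2054 in shScramble. The groups did not overlap, with a log2 difference of 0.30 (SE 0.11, limma adjusted p = 0.0292). The call was lost when each library was centred on its median (0.18, adjusted p = 0.155), with library kind as a term (0.26, adjusted p = 0.0528), and without any of shFLI1 replicates 1, 2 or 3 or shScramble replicates 1 or 3 (adjusted p = 0.0537 to 0.0877). Median centring moved the median difference of all genes at 48 h from 0.01 to −0.11, and split the calls into 5885 higher and 7721 lower in place of 6768 and 6661. At 24 h EZH1 gave 0.24 (SE 0.12, limma adjusted p = 0.128). Per kb, the ratio of EZH2 to EZH1 was 4.52 ± 0.36 with shFLI1 at 48 h (SD, n = 3) and 11 ± 1.54 in shScramble (n = 5), and the libraries spanned 4.24 to 4.93 and 8.93 to 13.

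The 2 subunits that every PRC2 complex needs behaved differently at the 2 times. SUZ12 had 2600, 2507 and 2676 normalised reads with shFLI1 at 48 h, below all 5 shScramble libraries (3558, 3564, 3624, 3334 and 3657), a log2 difference of −0.45 (SE 0.08, limma adjusted p = 0.00027). EED, the subunit that binds the methylated tail, had 1590, 1463 and 1557 against 2118, 2053, 1837, 2002 and 2000, a difference of −0.38 (SE 0.07, limma adjusted p = 0.000359). Neither group overlapped its control. At 24 h the differences were 0.06 (SUZ12, limma adjusted p = 0.588) and −0.01 (EED, limma adjusted p = 0.964), and both genes' libraries overlapped the controls. The change from 24 to 48 h passed for SUZ12 (−0.51, SE 0.11, limma adjusted p = 0.00182) and for EED (−0.37, SE 0.11, limma adjusted p = 0.0244). The EED call was lost without shFLI1 48 h replicate 2 (−0.34, adjusted p = 0.0725) or shFLI1 24 h replicate 3 (−0.34, adjusted p = 0.0674). A transcribed pseudogene of SUZ12, SUZ12P1, had 2398 to 4428 normalised reads over the 28 libraries, and it gave −0.18 with shFLI1 at 48 h (limma adjusted p = 0.179), so how reads were shared between the copies bears on the SUZ12 level and is not given in the sources used here.

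PHF19 and MTF2 are alternative Polycomb-like partners of PRC2, and they moved apart. PHF19 had 910.6, 968.3 and 687.4 normalised reads with shFLI1 at 48 h and 308.9, 219.6, 225.9, 224.0 and 241.0 in shScramble. All 3 knockdown libraries were above all controls, a log2 difference of 1.80 (SE 0.18, limma adjusted p = 6.75e-07). At 24 h it had 601.7, 616.5 and 557.2 against 208.5, 237.4, 260.2, 210.9 and 320.2, a 2.41-fold rise (log2 1.27, SE 0.13, limma adjusted p = 3.1e-06) without overlap. The 48 h rise is also called in the authors' deposited table, with a log2 fold change of 1.59 and an adjusted p of 2.67e-05, where it is the only one of the 10 called for shFLI1. MTF2 had 3122, 3154 and 3372 normalised reads with shFLI1 at 48 h, below the 3877, 4214, 4688, 4500 and 4544 of shScramble (log2 −0.44, SE 0.08, limma adjusted p = 0.000146). At 24 h MTF2 gave −0.16 (limma adjusted p = 0.141). As a ratio per kb, PHF19 to MTF2 was 0.235 ± 0.0489 with shFLI1 at 48 h (SD, n = 3) and 0.0496 ± 0.0115 in shScramble (n = 5).

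JARID2, an accessory protein that helps PRC2 reach its targets, split by library kind in shScramble and at 24 h in both CHD4 hairpins, but not in the CHD4 hairpins at 48 h. In shScramble at 24 h its normalised reads were 17768 and 18918 in the 2 higher-share libraries and 12488, 11399 and 11286 in the 3 lower-share ones. The shFLI1 libraries, all lower-share, had 9658, 9402 and 9732, below every control (log2 −0.55, SE 0.18, limma adjusted p = 0.025). Within lower-share libraries the difference was −0.29 (limma adjusted p = 0.0159). The call over all libraries was lost without any 1 of the shFLI1 libraries or shScramble replicate 1 (adjusted p = 0.0549 to 0.0755), and after quantile normalisation (−0.38, adjusted p = 0.151). At 48 h JARID2 had 12594, 12044 and 12354 with shFLI1, within the range of the controls (−0.17, limma adjusted p = 0.358), and 0.03 within lower-share libraries (adjusted p = 0.657).

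Of the PRC1 genes, BMI1, a core subunit known for restraining the INK4A locus, had 1866, 1900 and 1657 normalised reads with shFLI1 at 48 h and 2004, 1913, 2506, 2496 and 2474 in shScramble. The groups lay next to each other without overlap (log2 −0.33, SE 0.12, limma adjusted p = 0.0293). The call was lost after quantile normalisation and without any of shFLI1 replicates 1 or 3 or shScramble replicates 3, 4 or 5 (adjusted p = 0.0522 to 0.119). Within lower-share libraries BMI1 was lower at both times (−0.40 at 24 h, adjusted p = 0.00643, and −0.47 at 48 h, adjusted p = 0.000292). A readthrough gene on the same strand, COMMD3-BMI1, shares exons with BMI1, so reads of the 2 genes cannot be fully told apart.

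CBX7, a chromobox protein a reader of the methyl mark known from pluripotent cells, had 368.5, 358.8 and 376.9 normalised reads with shFLI1 at 48 h and 233.0, 352.5, 238.1, 257.6 and 253.0 in shScramble. It rose 1.39-fold (log2 0.48, SE 0.16, limma adjusted p = 0.0148), and its lowest knockdown library stood just above shScramble replicate 2. The call was lost with median centring (0.36, adjusted p = 0.0504) and with quantile normalisation (0.21, adjusted p = 0.223). CBX2, the chromobox protein that compacts chromatin, had 6263, 6272 and 6051 with shFLI1 against 6330, 7449, 7532, 7639 and 6992. Although the groups did not overlap, this did not pass (−0.21, SE 0.10, limma adjusted p = 0.072), and it did with median centring (−0.33, adjusted p = 0.00788) and within lower-share libraries (−0.25, adjusted p = 0.00355). The CBX2 to CBX7 ratio per kb was 22.1 ± 0.951 with shFLI1 at 48 h (SD, n = 3) and 36 ± 5.18 in shScramble (n = 5). At 24 h BMI1, CBX2 and CBX7 gave −0.26, 0.05 and 0.20, and none passed (limma adjusted p = 0.133, 0.705 and 0.247).

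**Figure D2:**
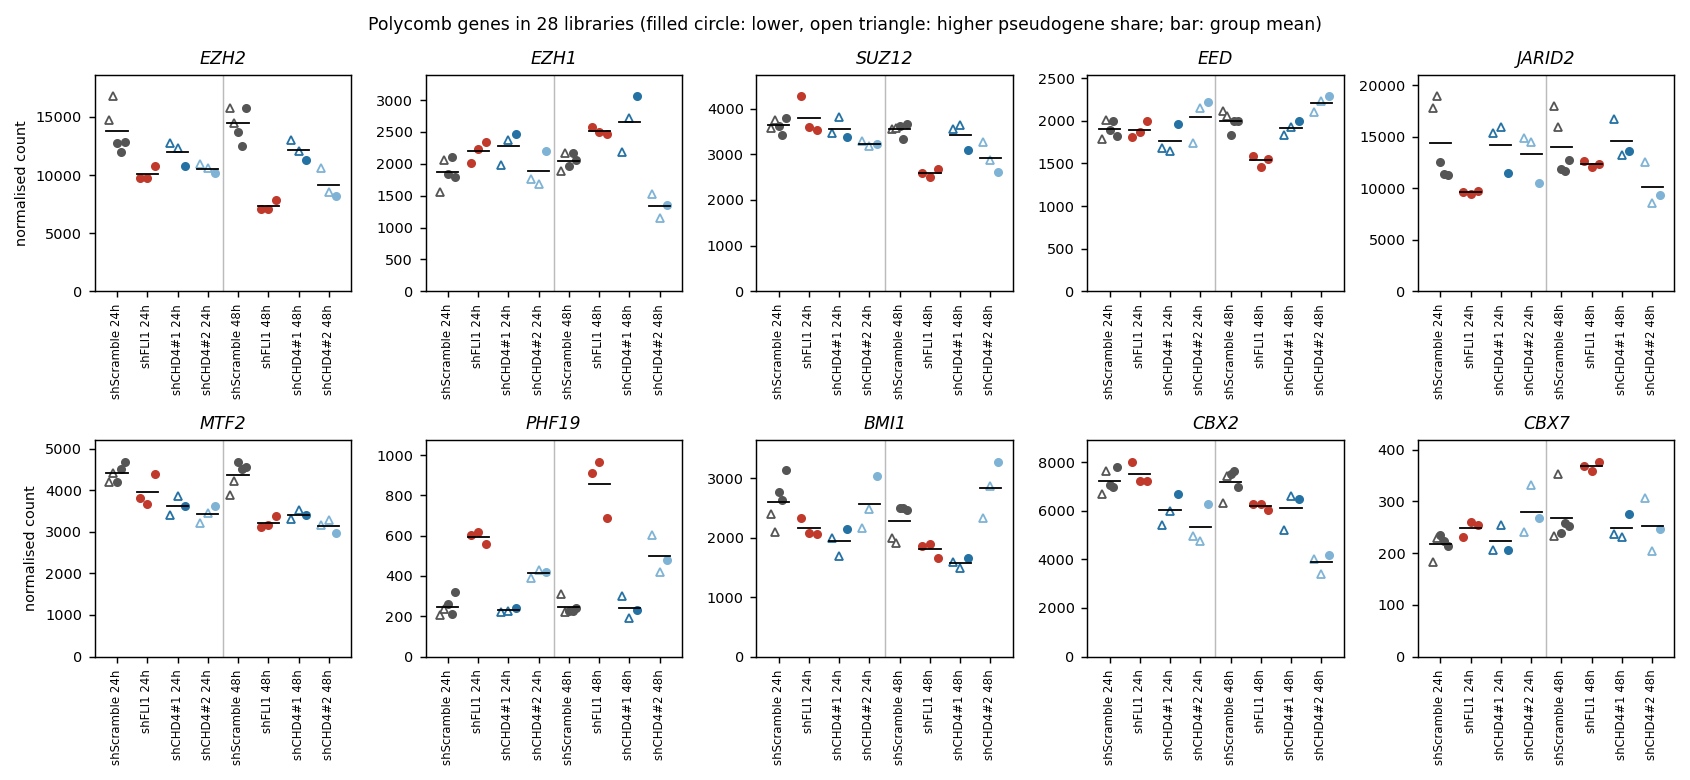
Normalised reads of each Polycomb gene in all 28 libraries by hairpin, 24 h left and 48 h right of the grey line, with bars for group means, filled circles for lower-share and open triangles for higher-share libraries. PHF19 stands higher with shFLI1 at both times and with shCHD4#2, EZH2 stands lower with shFLI1, and JARID2 splits by library kind in shScramble and, at 24 h, in the CHD4 hairpins.

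Several properties of the shFLI1 libraries at 48 h moved with these results. Mitochondrial ribosomal RNA took 22.1 to 22.5% of their reads, against 16.2 to 18% in shScramble, and the Ewing sarcoma marker sum was 9506 to 12310. FLI1, the target of the hairpin, is part of that sum. The sum of 3 fibroblast markers (DCN, PDGFRA, LUM) was 234.7 to 423.2 normalised reads against 7.47 to 33. Of the leukocyte markers, PTPRC had 124.2 to 219.7 normalised reads against 40.1 to 48.4, while CD3E and LYZ had 0 to 2.36 with shFLI1. At 24 h the fibroblast sum was 98.4 to 156.4 against 10.8 to 33.2, PTPRC 276.1 to 332.8 against 28.7 to 53.8, and the Ewing sarcoma sum 11522 to 14626. The fibroblast rise at 24 h lay in DCN and LUM, while PDGFRA had 6.63 to 11.2 normalised reads against 4.22 to 11.1. Of the epithelial markers, CDH1 had 2.36, 20.7 and 782.9 normalised reads in shFLI1 48 h replicates 1, 2 and 3, and EPCAM 5.91, 4.6 and 43.6. With replicate 3 included, 8 of the 10 Polycomb genes and 63.9% of all genes were called. With replicate 3 left out, 6 of the 10 were called, and the share of all genes in that fit is not given here. In the fit without replicate 3, EZH2 was called at −1.02 and PHF19 at 1.95, while EZH1 and BMI1 were not (limma adjusted p = 0.0542 and 0.119). The part of the marker and ribosomal RNA shifts in the other values was not tested.

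The first CHD4 hairpin gave calls among the Polycomb genes at a share near that of all genes. For the members not called the libraries overlapped the controls. With shCHD4#1 at 24 h 1 of the 10 was called, a lower one, against 11.3% of all genes (5.21% higher, 6.14% lower). At 48 h 3 were called, 1 higher and 2 lower, against 28.4% (12.9% higher, 15.5% lower). At 48 h MTF2 and BMI1 fell and EZH1 rose.

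MTF2 had 3315, 3516 and 3397 normalised reads with shCHD4#1 at 48 h, all below shScramble (3877 to 4688), a log2 difference of −0.35 (SE 0.08, limma adjusted p = 0.00322). BMI1 had 1586, 1499 and 1657, also below all 5 controls (−0.52, SE 0.12, limma adjusted p = 0.00572). The overlapping COMMD3-BMI1 fell alongside (−0.49, limma adjusted p = 0.00603). EZH1 had 2186, 2716 and 3061, all above the controls, the first by a narrow margin (0.36, SE 0.11, limma adjusted p = 0.0245). With replicate number as a block, which pairs the CHD4 hairpin libraries with shScramble, EZH1 no longer passed (0.39, adjusted p = 0.0606), and the call was also lost without shCHD4#1 replicate 2 (adjusted p = 0.0954) or 3 (adjusted p = 0.139). EZH2 gave −0.25 (limma adjusted p = 0.0795) and overlapped the controls at 13017, 12058 and 11281. PHF19 gave −0.03 (limma adjusted p = 0.928), with 302.3, 188.9 and 233.2.

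At 24 h only MTF2 was called with shCHD4#1, at 3391, 3863 and 3607 normalised reads against 4186, 4423, 4202, 4516 and 4687. The groups did not overlap (−0.28, SE 0.08, limma adjusted p = 0.0422). The call was lost with the replicate block (−0.24, adjusted p = 0.0844) and when any 1 of the 8 libraries compared was left out (adjusted p = 0.0509 to 0.159). Within lower-share libraries MTF2 gave −0.31 (adjusted p = 0.232).

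The second CHD4 hairpin moved more of the set. With shCHD4#2 at 48 h 7 of the 10 genes were called, 1 higher and 6 lower, against 37.9% of all genes (17.5% higher, 20.3% lower). CBX2 and EZH2 fell furthest and PHF19 rose. At 24 h 4 of the 10 were called, 1 higher and 3 lower, against 11.1% of all genes (4.05% higher, 7.01% lower). The Ewing sarcoma marker sum in these libraries was 17327 to 25617 at 48 h, and its part in the values was not tested.

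CBX2 had 4018, 3405 and 4194 normalised reads with shCHD4#2 at 48 h, far below every shScramble library (6330 to 7639), a 1.86-fold fall (log2 −0.89, SE 0.10, limma adjusted p = 1.18e-05). The authors' deposited table calls CBX2 too, at −0.86 with an adjusted p of 0.0362, and no other member for this hairpin. At 24 h it had 4945, 4774 and 6272 against 6705 to 7808, a difference of −0.45 (SE 0.10, limma adjusted p = 0.0122) that was lost without shCHD4#2 replicate 1 (adjusted p = 0.0561) or 2 (adjusted p = 0.0951). Within lower-share libraries it was −0.21 (adjusted p = 0.415).

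EZH2 had 10610, 8540 and 8158 with shCHD4#2 at 48 h, below all controls (log2 −0.67, SE 0.10, limma adjusted p = 0.000171), and 10930, 10597 and 10161 at 24 h (−0.38, SE 0.11, limma adjusted p = 0.0372). The 24 h call did not outlast the removal of any 1 shCHD4#2 library or of shScramble replicate 1 or 2 (adjusted p = 0.0516 to 0.129), and within lower-share libraries it was −0.30 (adjusted p = 0.219). EZH1, which rose with shFLI1, was lower here at 1522, 1151 and 1350 against 1881 to 2169 (−0.62, SE 0.11, limma adjusted p = 0.000642). Both methyltransferase genes fell together, and the EZH2 to EZH1 ratio per kb stayed at 10.5 ± 1.08 (SD, n = 3), within the shScramble range of 8.93 to 13. At 24 h EZH1 gave 0.00 (limma adjusted p = 0.987). The change in its shCHD4#2 effect between times was −0.62 (SE 0.17), which did not pass without a block (limma adjusted p = 0.0651) and did with the replicate block (adjusted p = 0.0281) and within lower-share libraries (−0.82, adjusted p = 0.0417). No member's CHD4 hairpin effect differed between times, against 0.00476% of genes called for shCHD4#1 and 0.989% for shCHD4#2 (0.295% higher, 0.694% lower).

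PHF19 had 604.7, 418.3 and 477.0 normalised reads with shCHD4#2 at 48 h, above all controls (219.6 to 308.9), a 2.04-fold rise (log2 1.03, SE 0.18, limma adjusted p = 0.000493). At 24 h it had 391.9, 430.5 and 417.4, a 1.69-fold rise without overlap (log2 0.76, SE 0.13, limma adjusted p = 0.00245). Within lower-share libraries the 24 h difference was 0.68 and did not pass (adjusted p = 0.128).

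MTF2 fell with this hairpin at both times, to 3157, 3273 and 2975 at 48 h (log2 −0.48, SE 0.08, limma adjusted p = 0.000247) and 3204, 3447 and 3609 at 24 h (−0.36, SE 0.08, limma adjusted p = 0.012). It was the 1 member called in the same direction with both CHD4 hairpins, and it was so at both times, against 1.46% of all genes lower with both at 24 h and 6.24% at 48 h. No member was higher with both, against 1.65% and 5% of all genes. The 24 h call with shCHD4#2 was lost without its replicate 1 (adjusted p = 0.0577) or 2 (adjusted p = 0.0553), and within lower-share libraries (−0.31, adjusted p = 0.252). Since both comparisons use the same shScramble libraries, they are not independent.

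SUZ12 had 3265, 2868 and 2609 with shCHD4#2 at 48 h, below all controls (−0.29, SE 0.08, limma adjusted p = 0.014). This was lost without shCHD4#2 replicate 2 or 3 (adjusted p = 0.0527 and 0.091) and after quantile normalisation. JARID2 had 12560, 8516 and 9320, of which the first lay within the controls (−0.47, SE 0.15, limma adjusted p = 0.0261), and the call was lost without shCHD4#2 replicate 2 (adjusted p = 0.15) or 3 (adjusted p = 0.0956) or shScramble replicate 2 (adjusted p = 0.0519). The JARID2 call was also lost after quantile normalisation (−0.32, limma adjusted p = 0.17) and with the compared groups alone (limma adjusted p = 0.0661). BMI1 had 2336, 2873 and 3285 against 1913 to 2506, which overlapped (0.31, SE 0.12, limma adjusted p = 0.0581). BMI1 passed with the replicate block (0.40, adjusted p = 0.0326), with edgeR, DESeq2, median centring, quantile normalisation and library kind as a term (adjusted p = 0.00217 to 0.0435), and within lower-share libraries (adjusted p = 0.0132). EED (0.14) and CBX7 (−0.08) did not pass at 48 h (limma adjusted p = 0.145 and 0.714).

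**Figure D3:**
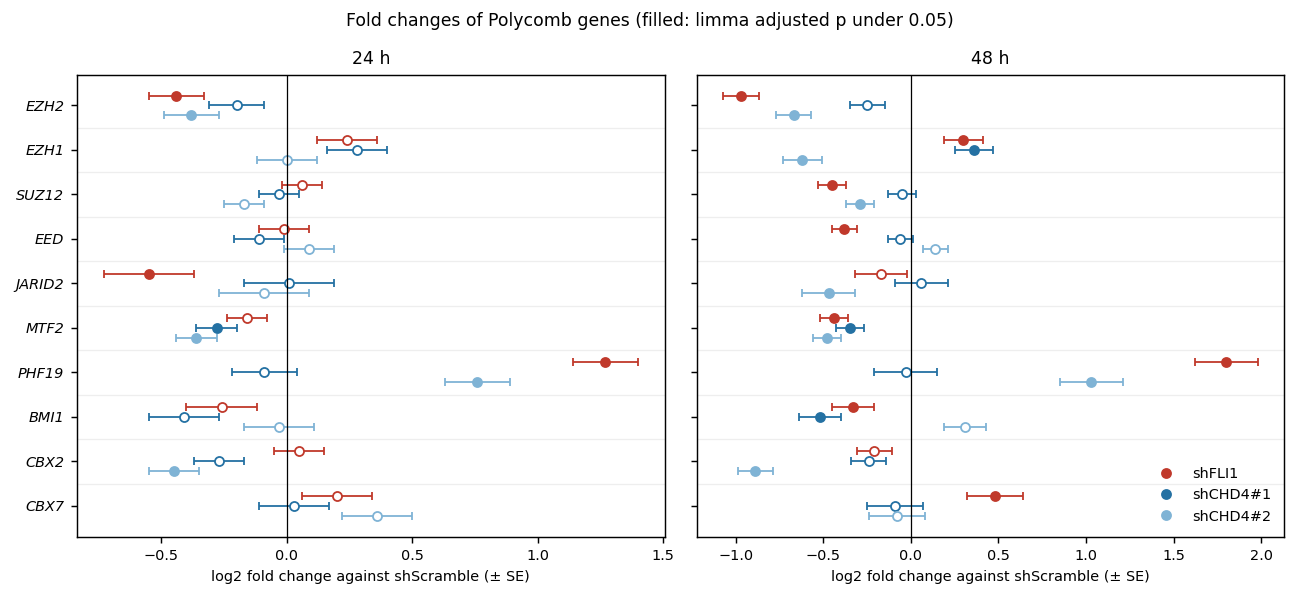
Log2 fold change of each Polycomb gene against shScramble at 24 and 48 h, with standard errors, filled where the limma adjusted p is under 0.05. PHF19 lies to the right with shFLI1 (1.27 and 1.80) and shCHD4#2 (0.76 and 1.03), and EZH2 to the left, most with shFLI1 at 48 h (−0.97).

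Compared directly, the 2 CHD4 hairpins differed in 6 of the 10 genes at 48 h, 4 higher and 2 lower with shCHD4#1, against 37.9% of all genes (19.2% higher, 18.6% lower). CHD4 itself stood at 2959 to 3482 normalised reads with shCHD4#1 and 2722 to 2801 with shCHD4#2 (limma adjusted p = 0.164). EZH1 was 1.97-fold higher with shCHD4#1, without overlap (log2 0.98, SE 0.12, limma adjusted p = 5.95e-05). CBX2 was 1.58-fold higher with shCHD4#1 (0.66, SE 0.11, limma adjusted p = 0.000422). EZH2 (0.42, limma adjusted p = 0.01) and JARID2 (0.53, limma adjusted p = 0.0242) were also higher with it. In the other direction, BMI1 was 1.77-fold lower (−0.83, SE 0.14, limma adjusted p = 0.000382) and PHF19 2.08-fold lower with shCHD4#1 (−1.06, SE 0.20, limma adjusted p = 0.00104). EZH1 was thus called above shScramble with one hairpin and below it with the other. The EZH2 call was lost without shCHD4#2 replicate 3 (0.35, adjusted p = 0.0518) and within lower-share libraries (0.47, adjusted p = 0.052), and that of JARID2 without shCHD4#1 replicate 1 or shCHD4#2 replicate 2 or 3 (adjusted p = 0.0811 to 0.113). At 24 h PHF19 alone differed between hairpins (−0.85, SE 0.15, limma adjusted p = 0.003), against 9.62% of all genes (5.62% higher, 4% lower), and with the replicate block BMI1 did too (−0.39, adjusted p = 0.0417). Within lower-share libraries PHF19 gave −0.79 (adjusted p = 0.19).

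**Figure D4:**
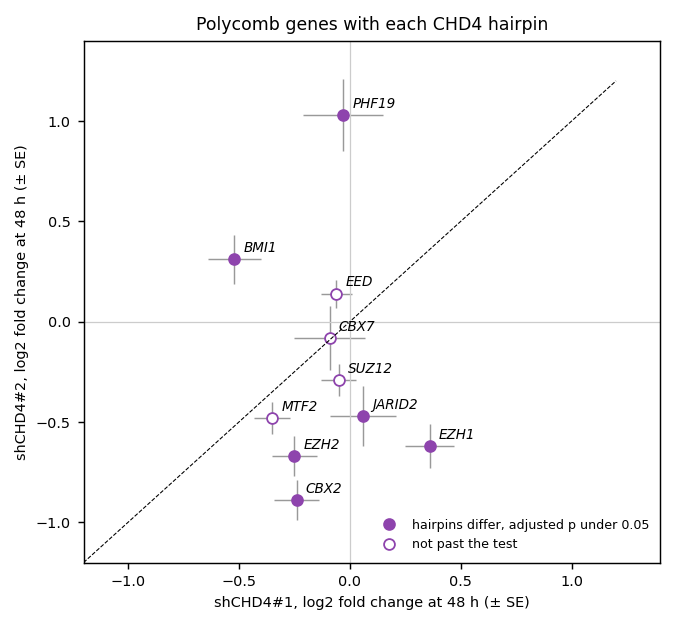
Log2 fold change of each Polycomb gene at 48 h with shCHD4#1 (x axis) and shCHD4#2 (y axis), with standard errors, filled where the hairpins differ at a limma adjusted p under 0.05, and a dashed line where both are equal. MTF2 lies low on both axes (−0.35 and −0.48), while EZH1 is at 0.36 and −0.62 and BMI1 at −0.52 and 0.31.

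Set against the mean of the 2 CHD4 hairpins, shFLI1 differed at 48 h in 7 of the 10 genes, 4 higher and 3 lower, against 65.7% of all genes (32.9% higher, 32.8% lower). EZH2 (−0.51, limma adjusted p = 0.00037), EED (−0.42, limma adjusted p = 0.000107) and SUZ12 (−0.28, limma adjusted p = 0.00707) were lower with shFLI1. Within lower-share libraries SUZ12 gave −0.13 (adjusted p = 0.12). PHF19 was higher with shFLI1 (1.30, limma adjusted p = 1.2e-05), as were CBX7 (0.57, limma adjusted p = 0.00426), EZH1 (0.43, limma adjusted p = 0.00296) and CBX2 (0.36, limma adjusted p = 0.00426). For EZH2, PHF19, EZH1 and CBX2 that mean joins hairpins that differed from each other. Within lower-share libraries BMI1 was called too (−0.37, adjusted p = 0.00241). At 24 h 3 of the 10 differed, against 52.9% of all genes (28% higher, 24.8% lower), PHF19 (0.94, limma adjusted p = 3.15e-05) and CBX2 (0.41, limma adjusted p = 0.00329) higher and JARID2 (−0.50, limma adjusted p = 0.0285) lower with shFLI1. The JARID2 call was lost within lower-share libraries (−0.19, adjusted p = 0.118) and without any 1 of 7 libraries, each of them a replicate of shFLI1 or a replicate 1 or 2 of a CHD4 hairpin (adjusted p = 0.0544 to 0.0833). Within lower-share libraries CBX2 gave 0.21 (adjusted p = 0.106).

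Other subunits of the complexes were read from lists that the members are not part of. Of 7 further PRC2 genes tested, shFLI1 at 48 h raised 2 and lowered 3, a share near the 63.9% called over all genes, with a list median of −0.14 against 0.01 (−0.02 to 0.02 in the other comparisons). AEBP2, an accessory subunit, rose from 1837 ± 170.4 to 3513 ± 419.5 normalised reads (log2 0.93, SE 0.09, limma adjusted p = 8.58e-07, n = 5 and 3). PHF1, the third Polycomb-like protein beside PHF19 and MTF2, rose by 0.94 (SE 0.13, limma adjusted p = 1.45e-05), and EPOP, a subunit of the same branch of PRC2, fell by 1.39 on the log2 scale (SE 0.24, limma adjusted p = 0.000122). With shCHD4#1 0 of the 7 were called at 48 h, against 28.4% of all genes. With shCHD4#2 1 was higher (AEBP2, 0.37, limma adjusted p = 0.00748) and 3 lower, against 17.5 and 20.3% of all genes.

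Of 11 further canonical PRC1 genes, shFLI1 at 48 h raised 7 and lowered 2, against 32.2 and 31.7% of all genes, with a median of 0.31. RING1, one of the pair of PRC1 ubiquitin ligases, rose from 1556 ± 45.5 to 3263 ± 348.6 normalised reads (1.06, SE 0.08, limma adjusted p = 4.5e-08), and PHC1, a polyhomeotic subunit, rose by 1.05 (limma adjusted p = 9.34e-07). CBX6 fell by 1.01 on the log2 scale (limma adjusted p = 3.38e-06). PCGF2, the close relative of BMI1, rose by 0.64 (limma adjusted p = 0.00158). With shCHD4#1 at 48 h 2 were higher and 2 lower, against 12.9 and 15.5% of all genes. With shCHD4#2 2 were higher and 1 lower, against 17.5 and 20.3%. PHC2 fell with both hairpins (−0.30 and −0.55, limma adjusted p = 0.0067 and 5.22e-05).

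HOX genes were taken as targets of the complexes. Of 33 tested, 20 were higher and 2 lower with shFLI1 at 48 h, against 32.2 and 31.7% of all genes, with a median of 0.49, and the split was 12 and 5 after quantile normalisation. HOXA13 rose from 81.2 ± 21.9 to 665.9 ± 23.7 normalised reads (3.06, SE 0.37, limma adjusted p = 4.89e-06) and HOXC4 rose by 1.69 (limma adjusted p = 2.06e-06), while HOXD13 fell by 0.93 on the log2 scale (limma adjusted p = 5.4e-07). With shCHD4#1 2 were higher and 13 lower (median −0.43), against 12.9 and 15.5% of all genes. The split was 0 and 9 with the replicate block, and 0 to 1 and 9 to 14 when 1 library was left out. With shCHD4#2 5 were higher and 8 lower (median 0.02), against 17.5 and 20.3% of all genes. HOXD13 also fell with both CHD4 hairpins (−0.62 and −1.09, limma adjusted p = 0.000196 and 1.21e-06).

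EZH2 is known to be higher in dividing cells, so proliferation genes were read beside it. Of 24, shFLI1 at 48 h lowered 21 and raised 0 (median −0.93), against 31.7 and 32.2% of all genes, led by RRM2 (−2.35, SE 0.14, limma adjusted p = 2.99e-09) and CDC45 (−1.61, limma adjusted p = 1.2e-08). At 24 h 7 proliferation genes were higher with shFLI1 and 3 lower (median 0.02), against 24.2 and 22.5% of all genes. When 1 library was left out, 4 to 8 were higher and 2 to 4 lower. At 48 h shCHD4#1 lowered 11 (median −0.37), against 15.5% of all genes, and 7 without its replicate 2. With shCHD4#2 19 were lower (median −0.60; 13 with the replicate block), against 20.3%. The part of proliferation in the EZH2 values was not tested.

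**Figure D5:**
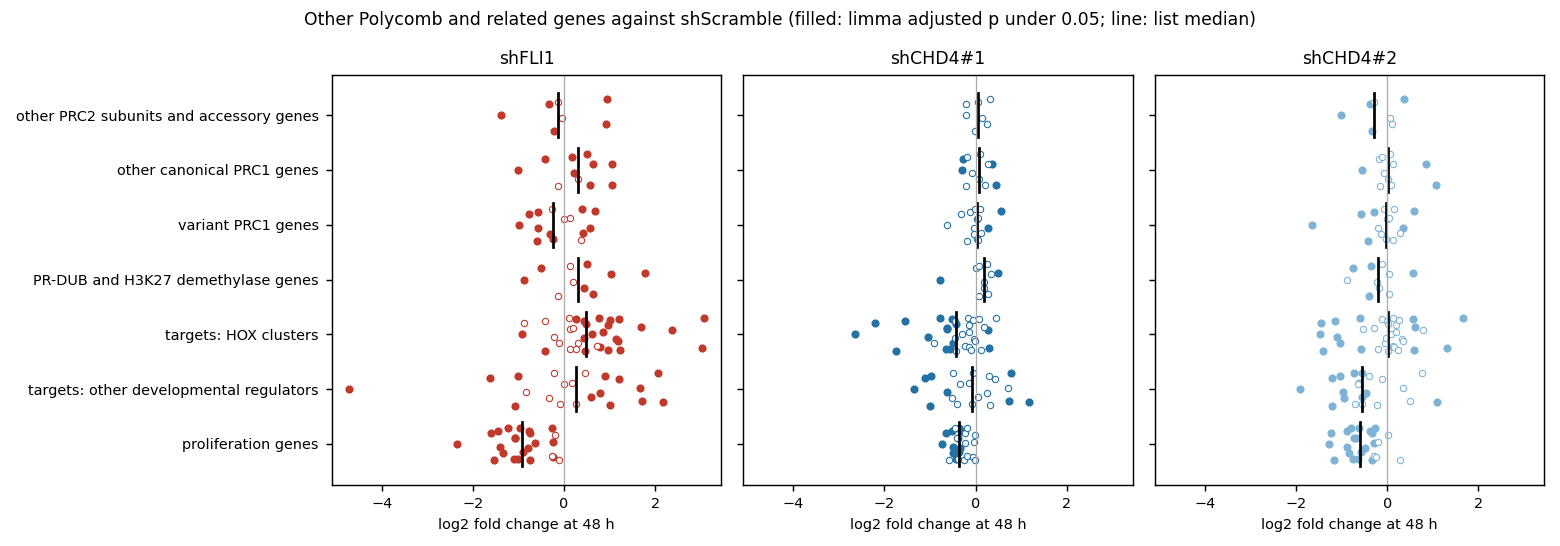
Log2 fold change against shScramble at 48 h of the genes in each further list, 1 panel per hairpin, filled where the limma adjusted p is under 0.05, with a line at each list's median. Proliferation genes lie mostly left of 0 with all 3 hairpins (medians −0.93, −0.37 and −0.60), while HOX genes lie mostly right with shFLI1 (median 0.49).

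The genes whose levels ran most like each member over the 28 libraries were found among 14216 genes with a mean of at least 100. EZH2 ran closest to LINC02866 (Pearson r = 0.9294), ALK (0.9258) and TNS1 (0.9209), and PHF19 to MR1 (0.9514), CHSY1 (0.9409) and PMM1 (0.9397). For SUZ12 the nearest was MELK (0.9043), for MTF2 NEDD1 (0.9075), for EZH1 LSS (0.9115) and for EED CEP63 (0.842). JARID2 ran closest to ZSWIM6 (0.9679), CBX2 to MGST3 (0.9427) and CBX7 to EHBP1L1 (0.7905). BMI1 was nearest to COMMD3-BMI1 (0.9687), with which it shares reads, and then to MRPL9 (0.9555). These values share library, depth and scaling, and they describe likeness over all 8 groups at once.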

How the data were processed

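RNA was measured in 28 libraries of SK-N-MC cells. Per the labels' protocols, total RNA was purified on columns with DNase treatment, made into stranded total RNA libraries and read from both ends. Per the submitters' processing notes, HISAT2 2.1.0, featureCounts 1.6.0, DESeq2 1.34.0, SAMtools 1.7 and FastQC 0.11.7 were used with GRCh38. Which annotation release and strand setting served for counting is not given in the sources used here. In the deposited files the signal is a gene's read count over a size factor of its library. The low values, where this was checked, were whole reads within 0.02 of a read. Higher values were not checked and were rounded to whole reads where reads were recovered. The authors' comparison tables hold log2 fold changes with raw and adjusted p-values, and 1 also holds a score, the test statistic. Their p-value was exactly 1 for 36.9 to 68.8% of genes in the 5 tables used for knockdowns. The deposited table whose name gives shFLI1 at 24 h matched shScramble at 48 h against 24 h (r = 0.9914 over 14216 genes, against 0.240 with shFLI1 at 24 h) and was not used for shFLI1.

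Genes with a mean of at least 10 were tested with limma-trend (limma 3.58.1, R 4.3.3) on log2(value + 1), a scale that understates the change of low genes. Each time was fitted with its 4 groups, and differences between times with all 8. P-values are two-sided and Benjamini-Hochberg adjusted over all 21025 genes, with a threshold of 0.05. edgeR 4.0.16 and DESeq2 1.42.0 on recovered reads were alternatives, beside other pseudocounts, filters, scalings, sample choices and leaving out each library. The script was tested on simulated data. Same-numbered libraries of shScramble and the CHD4 hairpins deviated together (correlations 0.137 to 0.695), those of shFLI1 did not (−0.211 to 0.125). Each replicate 3 of a CHD4 hairpin ran closest to shScramble replicate 4 or 5, and replicates 1 and 2 are also the higher-share libraries, so pairing and library kind cannot be told apart. The replicate block is given beside CHD4 hairpin results where it changes a call.

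The members and gene lists were chosen with earlier results of these data known. Named outside the members were the targets, up to 4 genes per list with the smallest adjusted p with shFLI1 at each time, Polycomb genes called with both CHD4 hairpins in 1 direction, the 3 genes most like each member, and transcripts sharing reads with one. HOXD13 and GATA2 with the CHD4 hairpins were added after their values were seen. Exon length per gene is the union of exons in GENCODE on GRCh38. Values of 1 gene on these lists are not reported here.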

Additional observations from a re-analysis of the deposited data

Results flagged for a closer look

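Each member was checked in both groups of 5 shScramble libraries, 20 groups in all, for a library far from the rest, which chance gives in about 1 of 20 groups. In shScramble at 48 h PHF19 was highest in replicate 1 at 308.9 normalised reads, far from the other 4 (219.6 to 241.0). CBX7 was highest in replicate 2 at 352.5, against 233.0 to 257.6 in the others.

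The effect of shFLI1 differed between times, by a test of the difference itself, for 3 members, all of the PRC2 core. Over all genes the share was 16.7% (7.22% higher, 9.44% lower). The 48 h log2 fold change minus that at 24 h was −0.53 for EZH2 (limma adjusted p = 0.0138), −0.51 for SUZ12 (limma adjusted p = 0.00182) and −0.37 for EED (limma adjusted p = 0.0244). The EZH2 call was lost after quantile normalisation (limma adjusted p = 0.0595). That of EED was lost without shFLI1 48 h replicate 2 or shFLI1 24 h replicate 3 (limma adjusted p = 0.0725 and 0.0674). Within lower-share libraries JARID2, MTF2, PHF19, CBX2 and CBX7 differed between times too.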

How the results depend on the processing

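Of 46 called member values over all comparisons, 32 lost the call under at least 1 alternative and 0 reversed. The authors' deposited tables count among these alternatives, although their p-values, exactly 1 for many genes, are unlike those of the other tests. For EZH2 with shFLI1 at 48 h their adjusted p was 0.165, against 1.13e-16 with DESeq2 on recovered reads. A call lost only in those tables is therefore not a like comparison. With shFLI1 at 48 h, EZH2, SUZ12, EED and MTF2 lost the call only there. The same held at 48 h for EZH2, EZH1, MTF2 and PHF19 with shCHD4#2, and for MTF2 and BMI1 with shCHD4#1. Of 94 that were not called, 44 changed sign and 26 were called under some alternative. Calls that rest on 1 or 2 libraries, and small changes of PHF19 and CBX7, the members with the fewest reads, are limited by the number of libraries.

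With shFLI1, members called went from 3 to 5 at 24 h with median centring, and from 8 to 5 at 48 h with the replicate block and 1 in the authors' deposited table. The change between times had 3 over all libraries and 8 within lower-share libraries. With shCHD4#1 at 24 h 1 became 0 without a filter, with median centring, quantile normalisation, edgeR, the compared groups alone, the replicate block, lower-share libraries and in the authors' deposited table, 2 with DESeq2 and 4 with library kind as a term. With shCHD4#2 at 24 h 4 became 0 within lower-share libraries and in the authors' deposited table. At 48 h the authors' deposited tables called 0 (main 3) for shCHD4#1 and 1 (main 7) for shCHD4#2. Between hairpins at 24 h 1 became 2 with the block and with library kind, and 0 within lower-share libraries. Against the hairpin mean, shFLI1 at 24 h went from 3 to 1 within lower-share libraries. The shCHD4#2 change between times had 0 as tested, 2 with DESeq2 and with library kind, and 1 with the block and within lower-share libraries. Leaving out 1 library gave 0 to 1 for shCHD4#1 at 24 h, 1 to 4 for shCHD4#2 at 24 h and 0 to 1 for the shCHD4#2 change between times.

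Over all genes, calls with shCHD4#1 at 24 h (1095 higher, 1290 lower) became 707 and 792 with the compared groups alone, 1994 and 2537 with library kind and 456 and 554 within lower-share libraries. With shCHD4#2 at 24 h 851 and 1474 became 418 and 849, 1962 and 2722, and 231 and 520. Between hairpins at 24 h 1181 and 841 became 763 and 482, 2324 and 2131, 183 and 100, and 1875 and 1607 with the block. The shFLI1 change between times (1519 and 1984) became 2553 and 3039 with library kind and 2516 and 2758 within lower-share libraries. That for shCHD4#2 (62 and 146) became 1 and 7, 378 and 576, 35 and 98, 272 and 397 with DESeq2, 117 and 220 with quantile normalisation, 38 and 79 without a filter and 224 and 426 with the block. The cause of these shifts was not tested.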

Other observations

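Variant PRC1 complexes, which lack the CBX readers, and the machinery that opposes Polycomb were read in the same way. Of 15 variant PRC1 genes, shFLI1 at 48 h raised 4 and lowered 7 (median −0.24 against 0.01 over all genes), a share of calls near the 63.9% over all genes. FBRSL1 fell by 0.98 on the log2 scale (limma adjusted p = 2.52e-06) and MGA, which brings the PCGF6 complex to DNA, by 0.57 (limma adjusted p = 5.5e-06), while BCOR, part of the PCGF1 complex, rose by 0.68 (limma adjusted p = 5.33e-06). With shCHD4#1 at 48 h 2 were higher and 0 lower, against 12.9 and 15.5% of all genes. With shCHD4#2 2 were higher and 4 lower, against 17.5 and 20.3%. YAF2 rose with both CHD4 hairpins (0.28 and 0.35, limma adjusted p = 0.0239 and 0.00495).

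Of 10 genes of the H2A deubiquitinase complex and the H3K27 demethylases, shFLI1 at 48 h raised 5 and lowered 2, also near that share. MBD6, a partner of the deubiquitinase, moved in opposite directions: it rose from 716.0 ± 71 to 1110 ± 67.9 normalised reads with shFLI1 (0.64, limma adjusted p = 6.08e-05) and fell with both CHD4 hairpins (−0.78 and −0.40, limma adjusted p = 8.14e-05 and 0.00574). With shCHD4#1 1 gene of the list was higher and 1 lower at 48 h, against 12.9 and 15.5% of all genes. With shCHD4#2 1 was higher and 3 lower, against 17.5 and 20.3%. Of 21 developmental regulators outside the HOX clusters, shFLI1 at 48 h raised 9 and lowered 4, again near that share. GATA2 rose with shFLI1 (1.66, limma adjusted p = 2.58e-06), and with the CHD4 hairpins it gave 0.74 and 1.10 (limma adjusted p = 0.00922 and 0.000423). PAX7 fell from 218.9 ± 59.8 to 7.41 ± 2.37 normalised reads with shFLI1 (limma adjusted p = 6.61e-09). With shCHD4#1 3 were higher and 5 lower (1 and 1 without its replicate 2), against 12.9 and 15.5% of all genes. With shCHD4#2 1 was higher and 11 lower (1 and 6 without its replicate 2), against 17.5 and 20.3%.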
